A study of Mus musculus with 16 samples.

Results

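The subject is the 5 transcripts Ctsk, Mmp9, Mmp14, Acp5 and Ckb, which encode enzymes that osteoclasts use to break down bone, taken by gene symbol from a table of 21936 genes. RNA was sequenced from 16 osteoclast cultures. Marrow cells carrying CD11b, a myeloid surface protein, were taken from C57BL/6J mouse lines and given M-CSF and later RANKL as well, the cytokines that turn such precursors into osteoclasts. The cultures formed 4 groups of 4, namely FLT3 ITD Ptprc KO (called the double mutant), FLT3 ITD, Ptprc KO and WT. FLT3 ITD mice carry the receptor kinase gene Flt3 with an internal tandem duplication knocked in. Ptprc KO mice carry a knockout of Ptprc, the gene of CD45, a tyrosine phosphatase on the surface of blood cells. The double mutant combines both alleles. RNA was taken when mature osteoclasts first appeared, on day 3 to 5, and the sources used here give neither the day of each culture nor the age of the mice. The growth protocol also mentions the inhibitor AC220, which no library is labelled with. Whether a group's 4 cultures came from 4 animals is not stated by the labels, and the spread between cultures on which the p-values rest may thus be technical. With WT, both single alleles and their combination, the design sets each allele against its absence and the combination against the sum of the single effects.

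An osteoclast seals off a patch of bone, acidifies the space below it to dissolve the mineral, and releases enzymes that digest the exposed collagen. Ctsk encodes cathepsin K, the lysosomal cysteine protease that cleaves type I collagen in acid. Mmp9 encodes a secreted gelatinase, and Mmp14 a membrane-bound metalloproteinase that cleaves collagen at the cell surface and activates other proteases. Acp5 encodes tartrate-resistant acid phosphatase (TRAP), the classical stain for osteoclasts, and Ckb encodes brain-type creatine kinase, which buffers ATP for the proton pumps. The transcription factor NFATc1, induced by RANKL, drives several of these genes together with AP-1, PU.1 and MITF.

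The 5 genes lie on 5 chromosomes (GRCm38). Ctsk (ENSMUSG00000028111) spans chr3:95499256-95509362 and Mmp9 (ENSMUSG00000017737) spans chr2:164940780-164955850, both on the plus strand. Mmp14 (ENSMUSG00000000957) spans chr14:54431612-54445364 on the plus strand. Acp5 (ENSMUSG00000001348) spans chr9:22126727-22135711 and Ckb (ENSMUSG00000001270) spans chr12:111669361-111672338, both on the minus strand. None of the 5 overlapped another annotated gene except Acp5, which overlaps 6530413G14Rik on the opposite strand. That transcript has no row in the count table, and whether strand was used in counting went unstated in the labels, although the library kit keeps strand.

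Promoters are shown because these unlinked genes varied together across the cultures, as described below. RefSeq (GRCm38.p6) gave the 250 bases before the start of 4 of the 5 genes. Capitals mark, on either strand, the NFAT core GGAAA, which 55.6% of 32851 promoters of the same length also hold, and the E-box CATGTG of MITF-type factors, held by 12.3%. The AP-1 site TGANTCA, held by 6.75%, was searched as well and matched none of the sequences shown. The windows are Ctsk chr3:95498960-95499209 (plus strand), Mmp14 chr14:54431348-54431597 (plus strand), Acp5 chr9:22130599-22130848 (minus strand, the most downstream of 3 starts) and Ckb chr12:111672339-111672588 (minus strand).
Ctsk: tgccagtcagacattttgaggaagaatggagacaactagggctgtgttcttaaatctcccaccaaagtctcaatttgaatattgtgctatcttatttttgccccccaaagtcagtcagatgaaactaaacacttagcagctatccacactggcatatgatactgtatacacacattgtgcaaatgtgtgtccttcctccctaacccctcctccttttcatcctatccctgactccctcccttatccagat
Mmp14: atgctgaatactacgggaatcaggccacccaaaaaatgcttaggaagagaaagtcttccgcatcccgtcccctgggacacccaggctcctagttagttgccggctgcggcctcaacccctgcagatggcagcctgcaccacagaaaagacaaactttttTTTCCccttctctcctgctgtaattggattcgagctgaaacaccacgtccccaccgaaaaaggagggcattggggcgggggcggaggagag
Acp5: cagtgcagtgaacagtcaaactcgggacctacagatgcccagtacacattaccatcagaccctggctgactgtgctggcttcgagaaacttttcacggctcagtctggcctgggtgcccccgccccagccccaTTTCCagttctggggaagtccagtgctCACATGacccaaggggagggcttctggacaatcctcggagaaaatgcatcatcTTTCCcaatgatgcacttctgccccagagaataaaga
Ckb: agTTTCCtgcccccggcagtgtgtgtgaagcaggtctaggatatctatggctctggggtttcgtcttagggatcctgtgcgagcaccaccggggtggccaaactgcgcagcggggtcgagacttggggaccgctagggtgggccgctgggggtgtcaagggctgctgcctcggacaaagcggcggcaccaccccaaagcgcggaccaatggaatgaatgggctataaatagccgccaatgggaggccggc
The Acp5 window shown held 2 NFAT cores and 1 E-box, and the windows of its other 2 starts held 1 NFAT core each and no E-box. The Mmp14 and Ckb windows held 1 NFAT core each, and the Ctsk window none of the 3 motifs. A match describes letters only.

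The libraries held 24211724 to 35773313 counts each. Of all genes 12093, with the 5 enzymes among them, had enough counts to be tested. Ptprc checked the labels: it stood at 54.1 to 86.7 CPM (counts scaled to the library total) in the double mutant, 230 to 543 CPM in FLT3 ITD, 30.8 to 45.8 CPM in Ptprc KO and 412 to 472 CPM in WT. All 8 libraries labelled as knockouts lay below the other 8. Flt3 itself had 1 to 41 counts in a library, and counts per gene do not show whether it carries the duplication. FLT3 ITD replicates 1 and 3 were the closest pair of libraries, with a chi-square of 2.77 per gene, where the pair ranked next, Ptprc KO replicates 2 and 3, had 13.04. FLT3 ITD replicates 1 and 3 still differed by more than sampling noise and were kept as separate libraries. FLT3 ITD replicate 2 held less of long genes (Spearman rho of -0.46 across genes between gene length and the deviation from the mean of all libraries, where the other 15 libraries gave -0.18 to 0.18). Of 8 osteoclast markers all were detected, and their summed level was 818 to 4010 TPM (the authors' unit, which also corrects for gene length) in the double mutant, 1134 to 4710 TPM in FLT3 ITD, 2261 to 5267 TPM in Ptprc KO and 2856 to 4062 TPM in WT. In bulk RNA, fewer osteoclasts and less RNA of a gene per osteoclast cannot be told apart.

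Ctsk, Mmp9 and Acp5 were among the most abundant transcripts of these cells. By TPM Ckb ranked 11th to 36th and Mmp14 264th to 403rd of all genes in WT libraries. In the double mutant they ranked 15th to 247th and 265th to 1782nd. Together the 5 enzymes made up 1.25%, 1.11%, 6.58% and 1.34% of all TPM in double-mutant replicates 1 to 4, against 7.35%, 7.21%, 7.10% and 1.95% in FLT3 ITD. Ptprc KO libraries held 4.22%, 8.83%, 8.19% and 3.40%, and WT libraries 4.78%, 6.05%, 4.24% and 5.34%. Thus 3 of 4 double-mutant libraries and 1 FLT3 ITD library lay below every other library, while double-mutant replicate 3 lay above all 4 WT libraries. On the TPM scale the order in WT was Ctsk (19239 ± 2147 TPM), Mmp9 (16211 ± 2742), Acp5 (10842 ± 1758), Ckb (4285.5 ± 1662) and Mmp14 (436 ± 68.0; SD, n = 4). The ranges of Ctsk and Mmp9 overlapped in WT, and those of the other neighbours did not. In the double mutant the order was Mmp9 (11098 ± 11117 TPM), Ctsk (7524 ± 8301), Acp5 (4900.2 ± 5041), Ckb (1869 ± 2238) and Mmp14 (283 ± 189; SD, n = 4), with SDs above the means of all but Mmp14. By TPM Ctsk ranked 2nd to 4th of all genes in WT libraries, and 20th, 30th, 3rd and 28th in double-mutant replicates 1 to 4.

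Ctsk, the collagen-cleaving cathepsin, stood at 1904, 1399, 8508 and 1169 CPM in double-mutant replicates 1 to 4 and at 12258, 18506, 11778 and 4203 CPM in FLT3 ITD. Ptprc KO libraries held 5959.6, 16696, 14899.9 and 6177 CPM, and WT libraries 7302, 9366, 7856 and 8103 CPM. Double-mutant replicates 1, 2 and 4 were the lowest of all 16 libraries, FLT3 ITD replicate 4 came next, and double-mutant replicate 3 lay inside the WT range. Means were 3245 ± 3522 CPM in the double mutant, 11686 ± 5855 CPM in FLT3 ITD, 10933 ± 5666 CPM in Ptprc KO and 8157 ± 873 CPM in WT (SD, n = 4 each). The lowest and the highest library differed 15.8-fold, and within WT 1.28-fold.

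Mmp9, the secreted gelatinase, stood at 4538, 5238, 27388 and 7027 CPM in the double mutant and at 25551, 19205, 23929 and 7226 CPM in FLT3 ITD. Ptprc KO libraries held 12383, 30813, 28593 and 11952 CPM of it, and WT libraries 13726, 17907, 13667 and 18378 CPM. The same 4 libraries were lowest, but double-mutant replicate 3 exceeded every FLT3 ITD and WT library. Group means were 11048 ± 10944, 18978 ± 8284, 20935 ± 10166 and 15919 ± 2574 CPM in the double mutant, FLT3 ITD, Ptprc KO and WT (SD, n = 4 each).

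Mmp14, the membrane-bound collagenase, was the least abundant of the 5 by TPM. It stood at 165, 548, 907 and 319.8 CPM in the double mutant, 1070.2, 1089.6, 1041 and 564 CPM in FLT3 ITD, 544, 1283, 1287 and 750.1 CPM in Ptprc KO, and 569.6, 747, 728 and 862 CPM in WT. Its double-mutant range reached over the whole WT range, and replicate 2, among the lowest for Ctsk, held 548 CPM, close to the lowest WT library. Stromal and osteoblast cells also make Mmp14. Their 12 markers summed to 4.48 to 13.3 TPM in the double mutant, 3.21 to 7.05 TPM in FLT3 ITD, 3.47 to 7.92 TPM in Ptprc KO and 7.11 to 24.2 TPM in WT. Neutrophils store MMP9, and their 8 markers summed to 4.40 to 54.8 TPM in the double mutant, 23.1 to 350 TPM in FLT3 ITD, 12 to 730 TPM in Ptprc KO and 0.481 to 362 TPM in WT. The 7 neutrophil markers tested were all negative in the double mutant against FLT3 ITD (median log2 fold change -2.63), with none past the threshold. The part of stromal cells in the Mmp14 level and of neutrophils in the Mmp9 level was not tested.

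Acp5, the TRAP gene, varied closely with Ctsk over the libraries, though not in the same order within every group. It stood at 1362, 1595, 7125 and 1216 CPM in the double mutant, 8572, 12732, 8414 and 3223 CPM in FLT3 ITD, 4668, 11507, 10504 and 4657 CPM in Ptprc KO, and 5967, 7325, 5329 and 5799.9 CPM in WT. Ckb, the creatine kinase gene, had the widest range, 21.5-fold between its lowest and highest library. It stood at 860.1, 573, 4177 and 426 CPM in the double mutant, 5926, 9149.9, 5666 and 1054.5 CPM in FLT3 ITD, 2657, 6918, 7320.4 and 1490.5 CPM in Ptprc KO, and 2814, 4921, 1959.9 and 3816 CPM in WT. For both genes double-mutant replicates 1, 2 and 4 were the lowest of all libraries and FLT3 ITD replicate 4 was next.

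**Figure D1:**
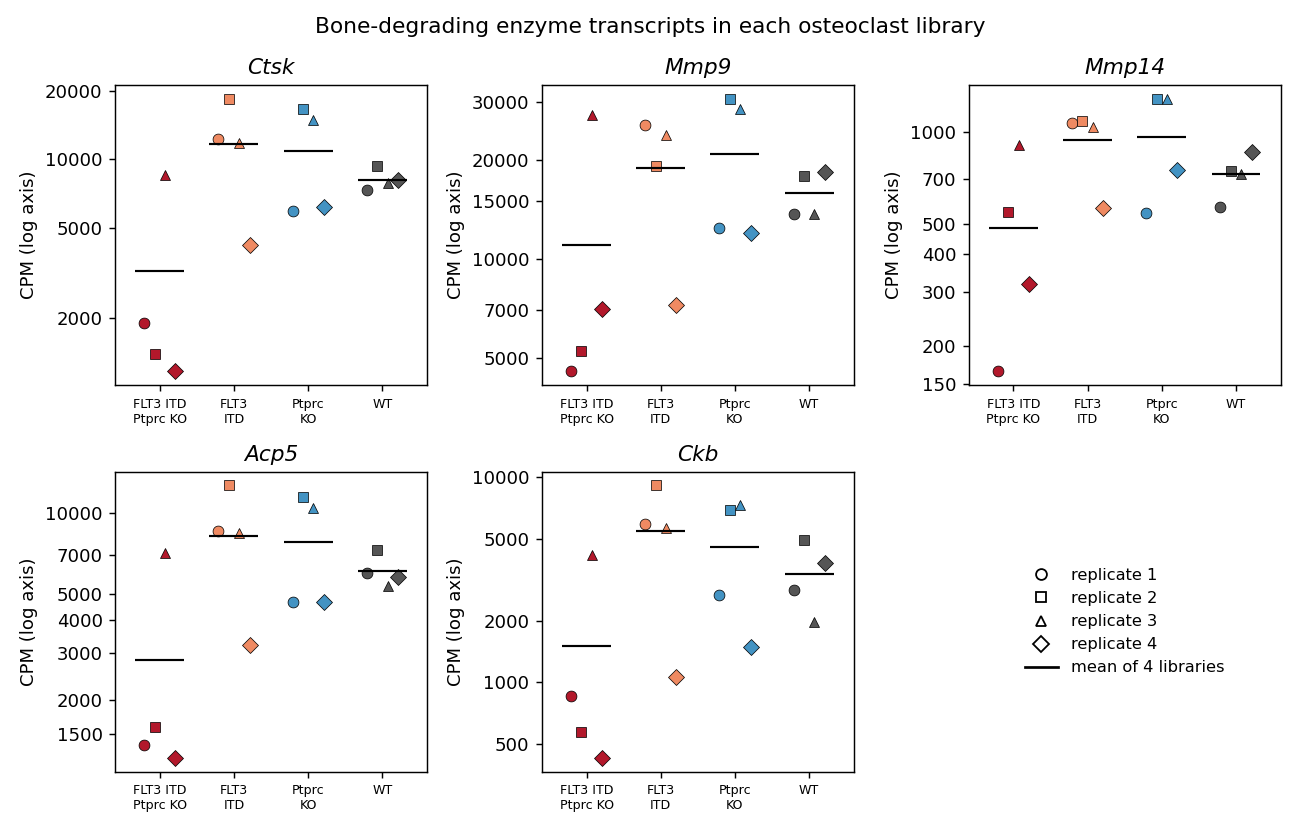
Level of each enzyme transcript in every library, in CPM on a log axis, with 1 point per library, shaped by replicate number, and a bar at the mean of the 4 libraries of a group. Replicate 3 stands above the other double-mutant libraries in all 5 panels, for Ctsk at 8508 CPM against 1169 to 1904 CPM, and FLT3 ITD replicate 4 stands below its group, for Ctsk at 4203 CPM.

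The comparison of the double mutant with FLT3 ITD shows the levels with and without CD45 where Flt3 is mutant. All 5 enzymes had negative log2 fold changes, and none passed (edgeR quasi-likelihood test, Benjamini-Hochberg adjusted p under 0.05), where 0.00827% of all tested genes passed in either direction. Ctsk stood at -1.85 (SE 0.62, 95% interval -3.17 to -0.53, adjusted p = 0.122) and Ckb at -1.85 (SE 0.77, adjusted p = 0.160). Acp5 stood at -1.54 (SE 0.57, adjusted p = 0.137), Mmp14 at -0.96 (SE 0.43, adjusted p = 0.177) and Mmp9 at -0.78 (SE 0.56, 95% interval -1.97 to 0.41, adjusted p = 0.368). Before adjustment 4 of the 5, all but Mmp9, had a p under 0.05 in the lower direction, a state shared by 13.7% of tested genes. The median over the enzymes was -1.54, beside 0.03 over all tested genes, of which 48% were negative. The library ranges overlapped for every enzyme, and 3.52% of tested genes had all 4 double-mutant libraries below all 4 FLT3 ITD libraries. DESeq2 called Ctsk alone (-1.87, adjusted p = 0.0333), with 7.55% of all genes. The voom method of limma with quality weights per library called all 5 enzymes, but also 57.9% of all genes.

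Leaving out a single library moved this result in both directions. Without double-mutant replicate 3 all 5 enzymes passed, with Ctsk at -2.97 (adjusted p = 0.0223), Acp5 at -2.57, Ckb at -3.14, Mmp9 at -1.76 and Mmp14 at -1.45 (adjusted p = 0.0415). In that fit 10.8% of all genes passed as well. Without FLT3 ITD replicate 4, Ctsk (-2.13, adjusted p = 0.0388) and Acp5 (-1.81, adjusted p = 0.0456) passed, along with 14.7% of all genes. Without FLT3 ITD replicate 2, which held less of long genes, values were nearer 0, with Ctsk at -1.53, Acp5 at -1.25 and Ckb at -1.48. With replicates 1 and 3 also summed, a setting chosen after seeing the data, 0 enzymes passed (Ctsk -1.32, adjusted p = 0.597, edgeR). Summed osteoclast markers stood at 4010 TPM in double-mutant replicate 3, against 818, 1033 and 1285 TPM in replicates 1, 2 and 4, and at 1134 TPM in FLT3 ITD replicate 4, against 4012 to 4710 TPM in the other 3. By their Ptprc level both libraries fell on the side of their labels as to the knockout. The part of osteoclast content in these differences was not tested.

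The double mutant against Ptprc KO shows the levels with and without FLT3 ITD where CD45 is missing. Again all 5 log2 fold changes were negative, as were 45.6% of those of all genes, with Ctsk at -1.75 (SE 0.62, adjusted p = 0.232), Ckb at -1.61 (SE 0.77, adjusted p = 0.286), Acp5 at -1.47 (SE 0.57, adjusted p = 0.251), Mmp14 at -0.99 (SE 0.43, adjusted p = 0.270) and Mmp9 at -0.92 (SE 0.56, adjusted p = 0.364). None passed, against 0.091% of all genes. DESeq2 called none of the 5 either, with 2.5% of all genes called. Voom with quality weights called all 5, with 57.6% of all genes. Ctsk, Acp5 and Mmp14 had an unadjusted p under 0.05 in the lower direction, as did 9.07% of tested genes. The median of the 5 was -1.47, beside 0.05 over all genes. The library ranges overlapped for each of the 5, where 2.84% of genes had all double-mutant libraries below all Ptprc KO ones. Without double-mutant replicate 3 all 5 passed in this comparison too (Ctsk -2.87, adjusted p = 0.0146), with 6.45% of all genes. The double-mutant libraries are shared by this and the previous comparison, so the 2 sets of values are not independent.

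Against WT the double mutant stood at -1.33 for Ctsk (SE 0.61, adjusted p = 0.601), -1.16 for Ckb (SE 0.76), -1.11 for Acp5 (SE 0.56), -0.58 for Mmp14 (SE 0.42) and -0.53 for Mmp9 (SE 0.56, adjusted p = 0.680). None passed, against 0.108% of all genes, and Ctsk alone had an unadjusted p under 0.05 (0.0458), as 3.69% of genes did in that direction. All 5 values were negative, as were 43.7% of those of all genes, and all 5 ranges overlapped, where 2.56% of genes had every double-mutant library below every WT one. DESeq2 called none of the 5, with 0.926% of all genes called, and voom with quality weights all 5, with 32.2%. Without double-mutant replicate 3, Ctsk (-2.45, adjusted p = 0.0440) and Acp5 (-2.13, adjusted p = 0.0470) passed, with 0.681% of all genes. The interaction term is the difference between the FLT3 ITD effect without CD45 and that with it. It stood at -2.27 for Ctsk (SE 0.86, adjusted p = 0.263), -2.30 for Ckb (SE 1.07), -1.90 for Acp5 (SE 0.79), -1.37 for Mmp14 (SE 0.60) and -1.18 for Mmp9 (SE 0.79, adjusted p = 0.404), and none passed, against 0.00827% of all genes. All but Mmp9 had an unadjusted p under 0.05, in a direction shared by 10.1% of genes, and all 5 terms were negative, as were 48.8% over all genes. DESeq2 called none of these 5 terms, with 1.34% of all genes called, and voom with quality weights all 5, with 60.2%. Without double-mutant replicate 3, the interaction of Ctsk (-3.39) and that of Acp5 (-2.92) passed (adjusted p = 0.0463 each), with 0.459% of all genes.

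The single alleles gave smaller values of the opposite sign. In FLT3 ITD against WT the 5 log2 fold changes were 0.52 for Ctsk, 0.25 for Mmp9, 0.37 for Mmp14, 0.43 for Acp5 and 0.69 for Ckb, with SEs of 0.42 to 0.75. None passed (adjusted p = 0.771 to 0.895, edgeR), against 0.0413% of all genes, and 54.5% of all genes were positive. With FLT3 ITD replicates 1 and 3 summed into 1 library and replicate 2 left out, Ctsk stood at -0.01 and Acp5 at -0.06. With log2(TPM + 1) Mmp9 stood at -0.12, where the median of all genes was -0.21 (0.04 with the counts), so the signs of Ctsk, Acp5 and Mmp9 were not stable in this comparison. Of the Ptprc KO against WT values, 54.9% were positive over all genes, and the enzymes stood at 0.42 for Ctsk, 0.40 for Mmp9, 0.41 for Mmp14, 0.36 for Acp5 and 0.44 for Ckb, with adjusted p = 0.9998 for each and 0.0331% of all genes passing. With the replicate number as a block Ckb stood at -0.05 there. The Ptprc KO cultures split into 2 high and 2 low ones. Replicates 2 and 3 exceeded all 4 WT libraries for each of the 5 enzymes, and replicates 1 and 4 lay below the WT mean for Ctsk, Mmp9, Acp5 and Ckb. No enzyme had an unadjusted p under 0.05 in either single-allele comparison, against 8.45% of all genes in FLT3 ITD and 0.843% in Ptprc KO. Neither DESeq2 nor voom with quality weights called any of the 5 there. DESeq2 called 0.389% of all genes in FLT3 ITD and 0.0729% in Ptprc KO, and voom 15.7% and 3.99%.

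**Figure D2:**
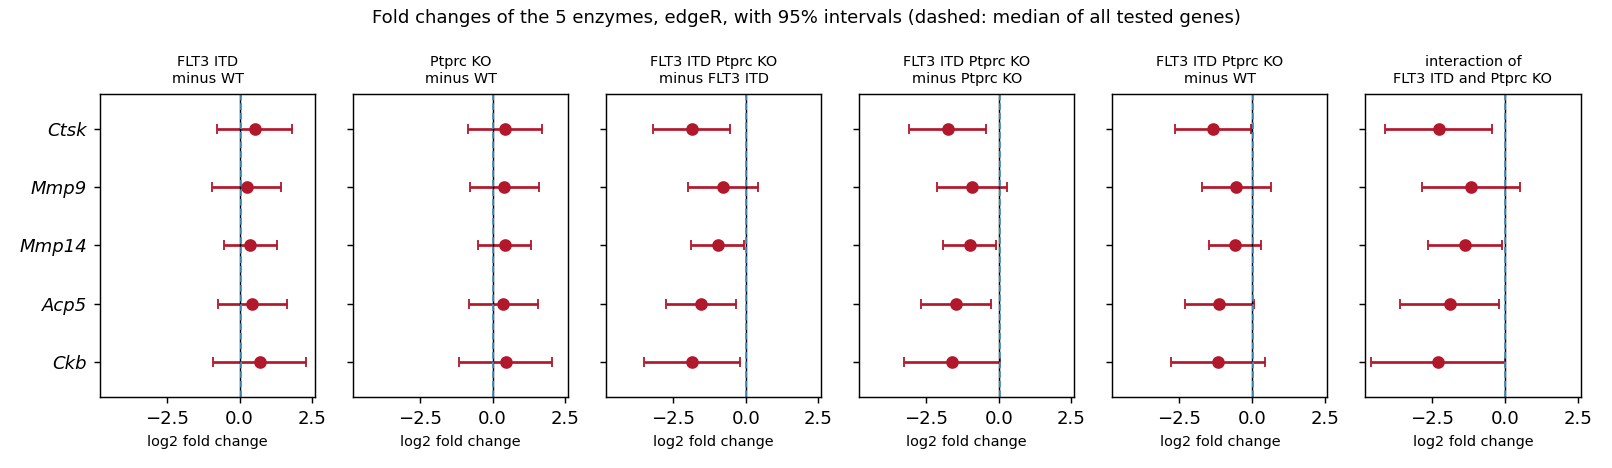
Log2 fold changes of the 5 enzymes in the 6 comparisons (x axis, edgeR), with points at the estimate, bars for the 95% interval and a dashed line at the median of all tested genes. All 15 points of the double-mutant comparisons lie left of 0, with Ctsk at -1.85 against FLT3 ITD, and all 10 points of the single-allele comparisons lie right of 0 with intervals that cross it, although Ctsk, Acp5 and Mmp9 in FLT3 ITD and Ckb in Ptprc KO changed sign in other settings.

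Counts of the enzymes relative to each other within a library do not depend on scaling between libraries. The ratios given here were chosen after the values were seen and were not tested. Of the 4 ratios to Ctsk, that of Acp5 varied least. It was 0.716, 1.14, 0.838 and 1.04 Acp5 counts per Ctsk count in the double mutant, against 0.678 to 0.817 in the 12 other libraries. Double-mutant replicates 2, 3 and 4 thus lay above the range of the others. That range was 1.21-fold, although the Ctsk level itself varied 4.4-fold within FLT3 ITD. Mmp9 per Ctsk was 2.38, 3.75, 3.22 and 6.01 in the double mutant, against 1.04 to 2.27 in the 12 other libraries. The 1.04 belonged to FLT3 ITD replicate 2, the library short of long genes, and without it the other libraries stood at 1.72 to 2.27. All 4 double-mutant libraries thus lay above the other 12, replicate 3 with its high levels included. Of all tested genes 1.71% had a ratio to Ctsk that was apart in this way, and 0 were apart in the lower direction. Such a ratio depends on the levels of both genes, and the part of each was not tested. Double-mutant replicate 3, at 3.22 Mmp9 counts per Ctsk count, had a Ctsk level inside the WT range. Only 1.9% of genes had a lower log2 fold change than Ctsk in the double mutant against FLT3 ITD. Mmp9 thus shared its separation from Ctsk with other genes among that 1.71%. Acp5 per Mmp9 was apart as well, at 0.173 to 0.304 in the double mutant against 0.316 to 0.663 in the 12 other libraries. The share of all genes with a ratio to Mmp9 apart in this way was not computed. On the TPM scale Mmp9 per Ctsk was 1.03 to 2.62 in the double mutant and 0.448 to 0.978 in the others. Without FLT3 ITD replicate 2 the others stood at 0.742 to 0.978. Mmp9 thus exceeded Ctsk per length only in double-mutant libraries. Mmp14 per Ctsk was 0.0867, 0.392, 0.107 and 0.274 in the double mutant, against 0.0589 to 0.134 in the other libraries, so 2 of 4 libraries were above that range. Ckb per Ctsk was 0.364 to 0.491 in the double mutant and 0.241 to 0.525 in the others.

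**Figure D3:**
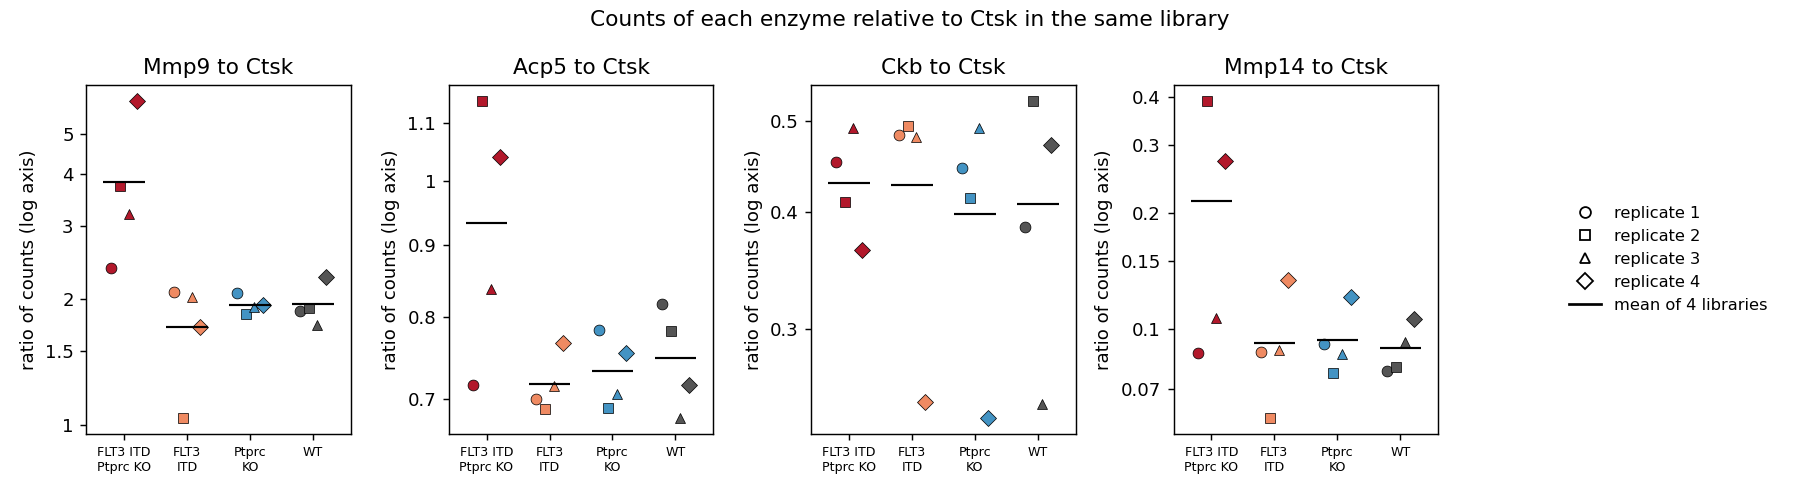
Counts of Mmp9, Acp5, Ckb and Mmp14 divided by counts of Ctsk in the same library (y axes, log scale), 1 point per library and a bar at the mean of a group. Mmp9 per Ctsk is 2.38 to 6.01 in the 4 double-mutant libraries, above all 12 others at 1.04 to 2.27, and the groups overlap in the other 3 panels.

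Across the 16 libraries the enzymes varied together. Pearson r of log2 CPM was 0.99 between Ctsk and Acp5, 0.97 between Ctsk and Ckb, 0.91 between Ctsk and Mmp9 and 0.85 between Ctsk and Mmp14, where the median r of all genes to Ctsk was -0.15, and the lowest of the 10 pairs was 0.81 between Mmp14 and Ckb. The libraries share genotypes, so these are descriptions. With the group means removed, r was 0.98 between Ctsk and Acp5 and 0.68 between Mmp14 and Ckb. No gene among 9507 had a higher r to Ctsk than Acp5. Outside the 5, the closest genes to Ctsk were Apbb1 (r = 0.987), Gimap6 (0.985) and Car2 (0.983), the carbonic anhydrase that supplies protons. The closest to Acp5 were Slc39a13 (0.988), Apbb1 (0.987) and Gimap6 (0.985), and to Ckb Cystm1 (0.990), Pheta1 (0.987) and Cdk16 (0.987). Mmp9 was closest to Tlcd3b (0.985), Arhgef5 (0.980) and Sh3rf1 (0.979), and Mmp14 to Inpp5a (0.962), Txnrd3 (0.962) and Tmem268 (0.956), so Ctsk and Acp5 shared Apbb1 and Gimap6 and no other pair of enzymes shared a gene among these.

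The acid system that dissolves the mineral stood with the enzymes. Of 12 genes for acid secretion and lysosome delivery 11 were tested, and none passed in any of the 6 comparisons (edgeR; 7 had an unadjusted p under 0.05 and lay lower in the double mutant against FLT3 ITD, as did 13.7% of all genes, and 8 against Ptprc KO, as did 9.07%). All 11 had negative log2 fold changes in the double mutant against FLT3 ITD (median -1.08, beside 0.03 over all genes) and against Ptprc KO (median -1.04), and 10 of 11 against WT, and all 11 were positive in FLT3 ITD (median 0.31) and in Ptprc KO (median 0.28) against WT. Atp6v0d2, a subunit of the osteoclast proton pump, stood at 262.9, 523, 1801 and 471 TPM in the double mutant, against 2089, 1687, 2054 and 472 TPM in FLT3 ITD (log2 fold change -1.22, SE 0.54, adjusted p = 0.176). The 4 low libraries among these 8 were the same as for Ctsk. Car2 stood at -1.95 (SE 0.66, adjusted p = 0.125) and the pump subunit gene Tcirg1 at -0.64 in that comparison. All 8 osteoclast markers, Atp6v0d2 among them, were negative as well (median -1.30), 5 with an unadjusted p under 0.05 (13.7% of all genes in that direction) and none past the threshold.

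Other proteases of the same families stood on both sides of 0. Of 13 other lysosomal proteases, all cathepsins but the legumain gene Lgmn, 12 were tested, with 8 positive and 4 negative in the double mutant against FLT3 ITD (median 0.08), and 10 positive and 2 negative against Ptprc KO and against WT. Ctss, the cathepsin S gene of macrophages and other antigen-presenting cells, stood at 4681, 9202, 1829 and 4199 TPM in the double mutant and at 887, 851, 855 and 9084 TPM in FLT3 ITD. Ptprc KO libraries held 1382, 781.6, 545.4 and 4243 TPM of it, and WT libraries 1972, 1147, 3830 and 2146 TPM. High libraries for Ctss were thus found in every genotype. The 2 libraries that stood apart for Ctsk stood apart the other way here, since double-mutant replicate 3 was the lowest of its group and FLT3 ITD replicate 4 the highest. The log2 fold change of Ctss in the double mutant against FLT3 ITD was 0.54 (SE 0.87, adjusted p = 0.707, edgeR). Of 17 other matrix metalloproteinases 11 were tested, with 7 positive and 4 negative (median 0.21). Named after their values were seen, Mmp11 (-1.18, SE 0.47, adjusted p = 0.152, edgeR) and Mmp15 (-1.16, SE 1.07) lay below 0 there, both at under 1 TPM on average. Mmp12, macrophage elastase, stood at 978.5, 2502, 226 and 1566 TPM in the double mutant and at 128.5, 82.3, 115 and 1792 TPM in FLT3 ITD (log2 fold change 1.07, SE 1.07, adjusted p = 0.523). Ptprc KO libraries held 52.0, 81.3, 48.1 and 463 TPM (log2 fold change 2.98 for the double mutant against Ptprc KO, SE 1.14, adjusted p = 0.251), and WT libraries 120.3, 205, 428.5 and 364 TPM. Double-mutant replicate 3 and FLT3 ITD replicate 4 again lay on the opposite side of their groups from where they lay for Ctsk. Ctsd, the aspartic protease cathepsin D, showed the same 2 libraries, at 4412, 6441, 1857 and 2525 TPM in the double mutant and 1775, 1843, 1780.0 and 6972 TPM in FLT3 ITD. Ptprc KO replicate 4 (5079 TPM) and WT replicate 3 (4025 TPM) were the highest of their groups for Ctsd, as they were for Ctss. None of these lysosomal proteases and metalloproteinases passed in any comparison. In the double mutant against FLT3 ITD 0 lysosomal proteases and 1 metalloproteinase, Mmp11, had an unadjusted p under 0.05 (edgeR), where 25.7% of all tested genes had one in either direction.

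Macrophages make several of these proteases, and 8 macrophage markers summed to 6350, 11860, 6506 and 4267 TPM in the double mutant and to 5658, 3792, 5600 and 10270 TPM in FLT3 ITD, against 4843 to 10720 TPM in Ptprc KO and 5070 to 10370 TPM in WT. FLT3 ITD replicate 4 was the highest of its group, and the double-mutant libraries were not ordered as for Ctss. Cd68 had the highest TPM of the 8 and weighed most in these sums. Gene by gene, 6 of the 8 were positive and 2 negative in the double mutant against FLT3 ITD (median 0.61), with none past the threshold. The 8 proliferation genes were all positive in the double mutant against FLT3 ITD (median 1.17, none past the threshold), at 1553, 209.8, 449 and 1110 TPM in sum in the double mutant and 435, 323, 444 and 51.2 TPM in FLT3 ITD. The part of these cells in the enzyme levels was not tested. Monocyte markers summed to 0.313 to 18.3 TPM. B cell markers summed to at most 1.68 TPM and T cell markers to at most 0.169 TPM in any library.

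Among inhibitors of the proteases, Cstb and Cst3 were the most abundant and varied over a narrower range than the enzymes. Of 8 inhibitor genes 7 were tested and Timp4 was listed at 0 in all libraries. None passed in any comparison, and 3 of the 7 had an unadjusted p under 0.05 in the double mutant against FLT3 ITD (edgeR), beside 25.7% of all genes. Cstb, the cytosolic cathepsin inhibitor stefin B, stood at 3012, 3283, 3563 and 2902 TPM in the double mutant and at 4174, 6981, 4164 and 4314 TPM in FLT3 ITD (log2 fold change -0.86, SE 0.23, adjusted p = 0.105). Cst3, the secreted inhibitor cystatin C, stood at 1287, 1435, 2458 and 1528 TPM in the double mutant and at 2350.0, 3078, 2314 and 2050.0 TPM in FLT3 ITD (log2 fold change -0.76, SE 0.23, adjusted p = 0.114). All 4 double-mutant libraries held less Cstb TPM than any FLT3 ITD library, a state that 3.52% of all genes showed with CPM, while for Cst3 double-mutant replicate 3 lay inside the FLT3 ITD range. Timp2, which inhibits metalloproteinases and takes part in activating Mmp2 with Mmp14, stood at 279 ± 105 TPM in the double mutant and 219 ± 75.6 TPM in FLT3 ITD (SD, n = 4 each). Of 6 genes whose products activate metalloproteinases or hold them at the cell surface 5 were tested, with 2 positive and 3 negative (median -0.30) and none past the threshold. Cd44, a surface receptor that docks MMP9, was among the steadiest, at 357 to 395 TPM in the double mutant and 379 to 446 TPM in FLT3 ITD.

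**Figure D4:**
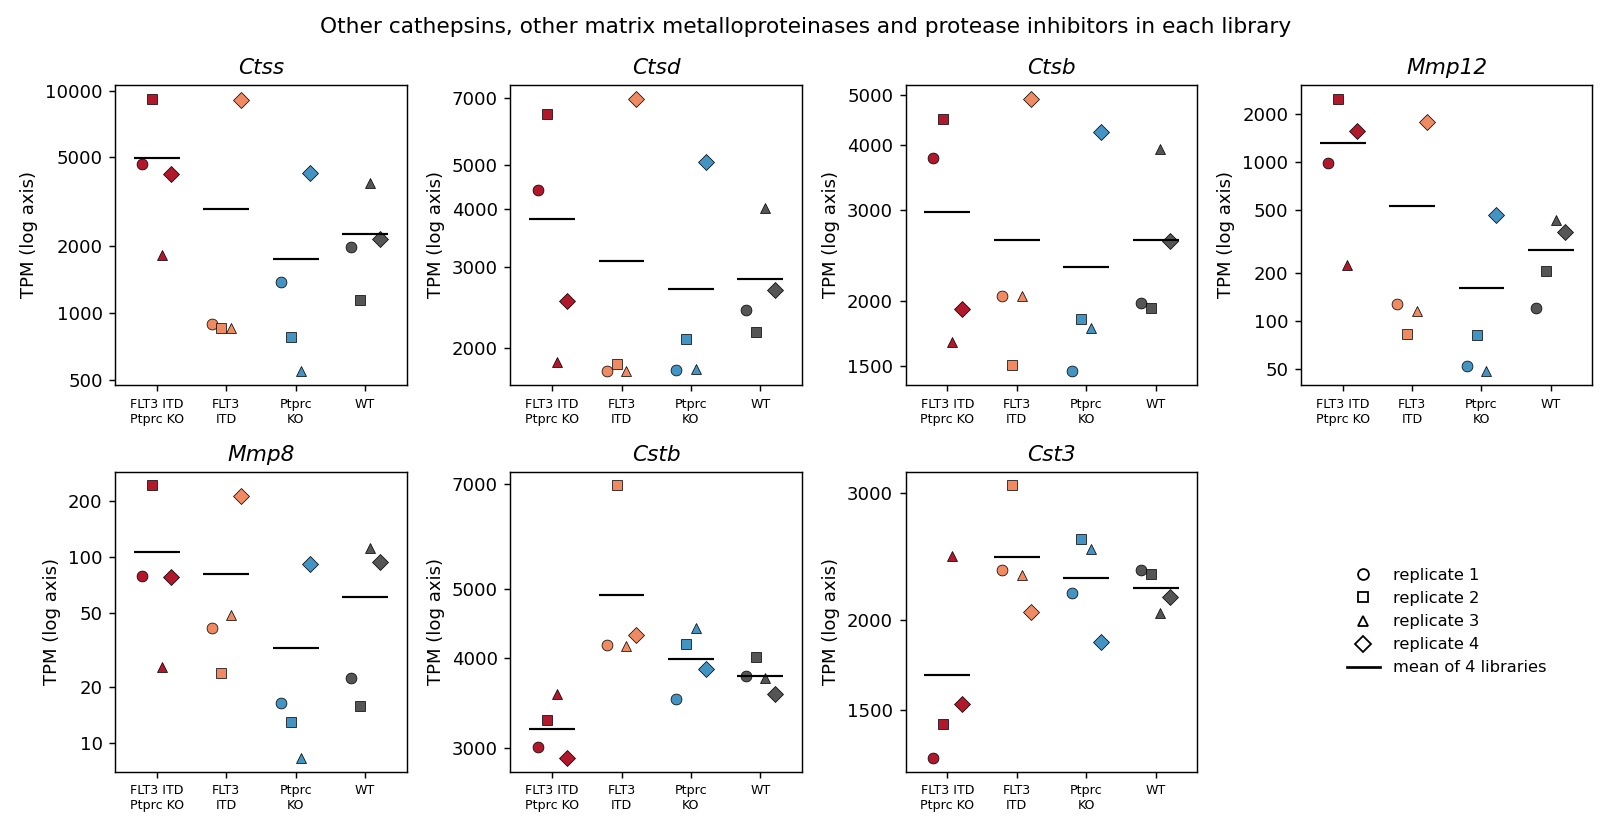
TPM of other cathepsins (Ctss, Ctsd, Ctsb), other metalloproteinases (Mmp12, Mmp8) and cathepsin inhibitors (Cstb, Cst3) in every library (log axes), 1 point per library and a bar at the mean of a group. For Ctss, FLT3 ITD replicate 4 stands at 9084 TPM over 851 to 887 TPM in the rest of its group, and double-mutant replicate 3 at 1829 TPM is the lowest of its group.

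The partners of Acp5 and Ckb were less abundant than the enzymes themselves. Of 5 other acid phosphatases 4 were tested, with 2 positive and 2 negative in the double mutant against FLT3 ITD (median 0.01). Of 6 genes of the creatine system 5 were tested, with 2 positive and 3 negative (median -0.63), and Ckmt2 was listed at 0. Gatm, which makes the precursor of creatine, stood at 0.98 (SE 0.46, adjusted p = 0.195, edgeR) and Gamt, which completes creatine, at 0.15 (SE 0.16). Slc6a8, the creatine transporter, stood at 131, 217, 260.6 and 139.7 TPM in the double mutant and at 315, 261.5, 303 and 162 TPM in FLT3 ITD (log2 fold change -0.63, SE 0.25, adjusted p = 0.144). FLT3 ITD replicate 4 was again the lowest of its group. Among 15 regulators of osteoclast genes 7 were positive and 8 negative in this comparison (median -0.20), and none passed in any of the 6, with 3 at an unadjusted p under 0.05 here (edgeR), a smaller share than the 25.7% of all genes. Nfatc1, named for its role after its values were seen and also on the osteoclast marker list, stood at -0.23 (SE 0.51, adjusted p = 0.795). Genes of the other factors introduced above, likewise named afterwards, lay on both sides of 0. The PU.1 gene Spi1 stood at -0.51 (SE 0.15, adjusted p = 0.114) and Mitf at 0.36 (SE 0.34). Of AP-1 genes, Jun stood at 0.57 (SE 0.21, adjusted p = 0.137), Fos at 0.45 (SE 0.29) and Fosl2 at -0.365 (SE 0.46).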

How the data were processed

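Poly(A) RNA of 16 osteoclast cultures, 4 per genotype, was sequenced with a kit that keeps strand and adds unique molecular identifiers, per the labels' protocols. The authors deposited raw counts (whole numbers per gene, not normalized) and a table of TPM, which the authors scaled for gene length and library total. Per the submitters' processing notes the tools were featureCounts 2.0.3, UMI-tools 1.1.1, STAR 2.7.6a, cutadapt 4.2 and bcl2fastq 2.20.0.422, with the build GRCm38.p6. Their order, their settings and whether identifiers were used to collapse reads remained unstated. The deposited TPM are not exactly those that the deposited counts and gene lengths give. Of values for genes with at least 100 counts in every library 99.6% lay within 10% of them (ratio 0.787 to 1.25), and those of the enzymes and the most abundant family genes within 8.32%.

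The main test was the quasi-likelihood test of edgeR 4.0.16 (R 4.3.3) on the counts, with filterByExpr to drop low genes and TMM to scale. A single robust fit held 4 group means and all 16 libraries. Its two-sided p-values were adjusted by Benjamini-Hochberg over 12093 genes, with 0.05 as the threshold. A term that passed there is said to have passed. CPM use TMM-scaled library totals, and log2 CPM a prior count of 2. Standard errors are the log2 fold change divided by the square root of F, and 95% intervals from the t quantile. Dispersion over all genes was 0.137, which is a coefficient of variation between cultures of 0.37. Shares of all genes beside a count of enzymes are over the genes tested in the same fit. The scripts were tested on simulated data. Figures were drawn with matplotlib 3.10.9.

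The 5 genes and all lists were chosen with earlier results of these data known. Besides the 5, named genes were the 3 closest to each by Pearson r of log2 CPM among 9507 tested genes with a mean of at least 5 CPM, without predicted gene models, and the 3 of each family list with the highest TPM, of which the text takes the most informative. Alternatives were RLE factors, other count filters, a replicate block, a fit of the compared groups alone, limma 3.58.1 (voom with quality weights, and fits to TPM), DESeq2 1.42.0, close libraries summed, and each library left out. The labels state no pairing of cultures by replicate number, so the main fit has no block, and whether such a pairing existed is not known. Gene positions came from GENCODE, which held 21817 of the 21936 gene IDs.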

Additional observations from a re-analysis of the deposited data

Results flagged for a closer look

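Single libraries that stood far from the other 3 of their group were looked for by the share of the range that the gap took up. In 60 sets of 4 values, the CPM of the enzymes and their ratios within a library, 8 were found. Such a rule flags about 1 in 20 sets of normal and independent values. The CPM and ratios were not checked for normality and share genes, so the 8 are not read as an excess. Double-mutant replicate 3 stood far above the other double-mutant libraries for Ctsk (8507.69 CPM), Mmp9 (27388.4 CPM), Acp5 (7125.24 CPM) and Ckb (4176.53 CPM). FLT3 ITD replicate 4 stood far below its group for Mmp14 (564.238 CPM), for Ckb counts per Acp5 count (0.3271) and for Ckb counts per Ctsk count (0.2509). Ptprc KO replicate 4 stood far above its group for Mmp14 counts per Mmp9 count (0.06276). The 8 values share libraries and genes and are not independent of each other.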

How the results depend on the processing

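In FLT3 ITD against WT and in Ptprc KO against WT 0 enzymes passed in every setting run. In the double mutant against FLT3 ITD, DESeq2 called 1 enzyme. Voom with quality weights called 5 in that comparison, 5 against Ptprc KO, 5 against WT and 5 in the interaction, and the cause was not tested. With each library left out in turn the number called was 0 to 5 against FLT3 ITD, 0 to 5 against Ptprc KO, 0 to 2 against WT and 0 to 2 in the interaction. The highest number came each time without double-mutant replicate 3, and without FLT3 ITD replicate 4 it was 2 against FLT3 ITD. With a replicate block 0 enzymes passed in all 6 comparisons (Ctsk -2.07 in the double mutant against FLT3 ITD, adjusted p = 0.0813). Of 24 pairs of same-numbered libraries 12 correlated over 0.1 (range -0.63 to 0.85). Among libraries of other groups, 8 of 16 libraries correlated best with their own number. With 4 replicate numbers per group, about 1 in 4 would do so without any pairing.

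Of the values of single enzymes under the alternatives 592 kept their sign and side of the threshold, 37 newly passed and 6 changed sign, all 6 in single-allele comparisons. These were Ckb in Ptprc KO against WT with the replicate block (-0.05), Mmp9 in FLT3 ITD against WT in the 3 TPM fits (-0.122 in each), and, in a setting chosen after seeing the data, with FLT3 ITD replicates 1 and 3 summed and replicate 2 left out, Ctsk (-0.008) and Acp5 (-0.059) in FLT3 ITD against WT. Over the alternatives other than leaving out a single library, the double mutant against FLT3 ITD stood at -2.84 to -1.32 for Ctsk, -2.50 to -1.05 for Acp5, -3.07 to -1.18 for Ckb, -1.88 to -0.74 for Mmp14 and -1.91 to -0.53 for Mmp9. With a single library left out the ranges were -2.97 to -1.53 for Ctsk, -2.57 to -1.25 for Acp5, -3.14 to -1.48 for Ckb, -1.45 to -0.67 for Mmp14 and -1.76 to -0.52 for Mmp9. The fit of only the groups compared was not run for the interaction, which needs all 4 groups. Depth did not limit the enzymes, whose counts were high in each library, and the spread between cultures set the width of the intervals.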
